A study of Mus musculus with 18 samples.

Results

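The genes described here are the brightest predicted genes of single blastomeres of parthenogenetic 2-cell mouse embryos. On the array they carry a provisional symbol, Gm followed by a number, which is given to mouse gene models before they are named. They were chosen by their measured brightness. A gene was kept if its symbol had this form and if the brightest of its array probes averaged at least 12 log2 units over the 18 arrays. Of 30176 genes with a probe of their own, 7691 were Gm genes and 449 of these passed the threshold. Genes with identical values on every array were counted once, which left 432 profiles, and the 300 brightest were kept. The limit of 300 therefore set the lower edge. The last genes inside it were Gm6493 at 12.88 and Gm13835 at 12.87 log2 units, and the first outside it were Gm12696 and Gm6788, both at 12.86. At the threshold itself, Gm7985 at 12.02 and Gm5434 at 12.01 lay inside and Gm12657 and Gm8349 lay outside, less than 0.01 below 12. Brightness chose these genes, so their high level is a description and not a finding.

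The samples were 18 blastomeres, the sisters a and b of 9 embryos numbered 1 to 5 and 7 to 10. Oocytes of B6C3F1 mice, a cross of inbred strains, were obtained after PMSG and hCG stimulation and activated without sperm in strontium chloride and latrunculin, which keeps the embryo diploid. All embryos were then cultured in KSOM(aa) medium and were bisected and lysed at the 2-cell stage. There was no other treatment and no fertilised or intact control, so the design compares sisters with each other and embryos with each other. Such embryos have no paternal genome, which limits them as a model of a fertilised embryo.

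Most predicted genes of this kind are pseudogenes, that is, copies of other genes that were inserted or duplicated in the genome and usually lost their coding frame. Oocytes and 2-cell embryos of the mouse are known for transcribing and storing many such copies. At the 2-cell stage the embryo switches on its own genome while maternal mRNA is being removed, and families present in many copies, such as Zscan4 and Obox, belong to the genes that are active then. Array probes cannot always separate near-identical copies, so a signal given below for a copy may come in part from its relatives or from its parent gene, and levels of different probes are not comparable as amounts of RNA.

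By the RefSeq gene table, the 300 genes were 247 pseudogenes, 11 transcribed pseudogenes, 29 protein-coding genes, 12 long non-coding RNAs and 1 miscellaneous RNA. For 263 of them the table held the same symbol. The other 37 were found there as older symbols of genes that have since been named, among them 15 pseudogenes of Obox4 and 6 of Obox3. They lay on every autosome and on the X chromosome, with 34 on chromosome 7, 29 on chromosome 4 and 25 on the X chromosome, and 1 on the Y chromosome. Neighbourhood was common. When genes no more than 10 RefSeq genes apart were joined, 60 of the 300 fell into 10 groups of at least 3, and 216 stood alone. The promoters of 3 protein-coding neighbours on chromosome 4 are shown first, because these genes moved together among the embryos and because they can be read as copies of each other. RefSeq windows of assembly GRCm38.p6 from 250 bases before to 50 after the start were available for 26 of the 300 genes. The windows shown lie on the minus strand at chr4:73405023-73405322 (Gm11487), chr4:73920667-73920966 (Gm11756) and chr4:73891031-73891330 (Gm11757), and capitals mark the letters TATAAA and GGATTA wherever they stand on either strand.
Gm11487: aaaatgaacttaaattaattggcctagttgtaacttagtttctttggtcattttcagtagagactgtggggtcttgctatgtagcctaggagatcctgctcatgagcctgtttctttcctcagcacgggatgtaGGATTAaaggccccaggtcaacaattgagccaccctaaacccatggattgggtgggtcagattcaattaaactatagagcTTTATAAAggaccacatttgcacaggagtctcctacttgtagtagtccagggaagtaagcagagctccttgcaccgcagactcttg
Gm11756: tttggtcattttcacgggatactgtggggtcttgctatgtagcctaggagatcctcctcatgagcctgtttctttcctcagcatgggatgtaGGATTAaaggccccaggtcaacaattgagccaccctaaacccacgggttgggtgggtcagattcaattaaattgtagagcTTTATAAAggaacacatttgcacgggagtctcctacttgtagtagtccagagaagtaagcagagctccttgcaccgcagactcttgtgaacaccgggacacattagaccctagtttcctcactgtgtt
Gm11757: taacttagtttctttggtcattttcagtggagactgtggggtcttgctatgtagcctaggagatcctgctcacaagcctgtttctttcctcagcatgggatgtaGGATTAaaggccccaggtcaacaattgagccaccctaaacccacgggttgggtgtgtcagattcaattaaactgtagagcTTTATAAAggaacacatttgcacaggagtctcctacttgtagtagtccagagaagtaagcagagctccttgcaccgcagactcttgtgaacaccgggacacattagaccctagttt
After alignment, 280 of 300 bases were identical between Gm11756 and Gm11757, 260 between Gm11487 and Gm11757 and 247 between Gm11487 and Gm11756. TATAAA, the letters of a TATA box, and GGATTA, a string that homeobox proteins of the Otx and Crx kind recognise, were found in all 3 windows. GGATTA began 82 bases ahead of TATAAA in each of them. TATAAA overlapped its own reverse complement there, which gives the run of 8 capitals. Among all 32851 RefSeq windows of this length, 13.6% held TATAAA on either strand, 7.06% held GGATTA and 1.19% held both. Of 27 windows available for the 26 genes, 6 held TATAAA, 9 held GGATTA and 3 held both, and these 3 are the windows shown. TATAAA began 34 bases before the start in Gm11487, 76 in Gm11756 and 64 in Gm11757. The 3 windows shown share their ancestry, so they count as 1 observation, and a match does not show that a factor binds there.

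Across the series, the 18 arrays had medians between 4.86 and 5.26 log2 units. A gene was called above background if its mean exceeded 5.79 log2 units, the level below which 95% of chemosensory receptor and Y-linked genes lay, and 12964 genes did. All 300 bright genes were among them, as their choice requires. The oocyte and 2-cell markers were above background in 8 of 8 cases, with means from 7.87 to 17.20. Of 7 measured cumulus and granulosa cell markers 1 was above it, Has2 with a mean of 6.43, and the oviduct and blood markers measured (2 and 1) were at 5.43 or below. Blastomeres 5b and 1a deviated most widely from the gene medians, with an interquartile range of 0.84 and 0.82 log2 units against 0.55 to 0.79 in the other 16.

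Between embryos, the bright Gm genes differed often. The test compared the variance of the embryo means with that within sister pairs (limma, moderated F test, Benjamini-Hochberg adjustment over all 12964 genes). It called 123 of the 300 genes at an adjusted p under 0.05, or 41.0%, against 5.76% of all genes tested. Bright genes were called more often in general: of 546 other genes at least as bright, 116 passed, or 21.2%. Of 2929 Gm genes above background with a mean under 12, 127 passed, or 4.34%. The difference between these shares was not tested. Among the pseudogenes 106 of 247 differed between embryos, among the protein-coding genes 13 of 29, among the transcribed pseudogenes 3 of 11 and among the long non-coding RNAs 1 of 12. In the 123 called genes the highest embryo exceeded the lowest by a median of 4.44-fold, from 1.72-fold to 86.8-fold. Of these genes 22 spanned more than 10-fold, and the 22 include 15 near-identical copies of Obox4, described below. Without those 15 copies, 108 of 285 genes were called, or 37.9%. The count of 123 depended on the samples included. It was 80 without blastomere 9b and 75 without both sisters of embryo 9, when 3.56% and 3.84% of all genes passed. It was 84 without embryo 8, 85 without embryo 7 and 87 without embryo 10, beside 3.67%, 3.26% and 3.61% of all genes. The plain analysis of variance that the methods name called 66 of the 300 genes and 2.72% of all genes. The labels give no batches or order of handling, so a difference between embryos and one between preparations of sister pairs cannot be told apart, and p-values measure only the spread between these blastomeres.

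**Figure D1:**
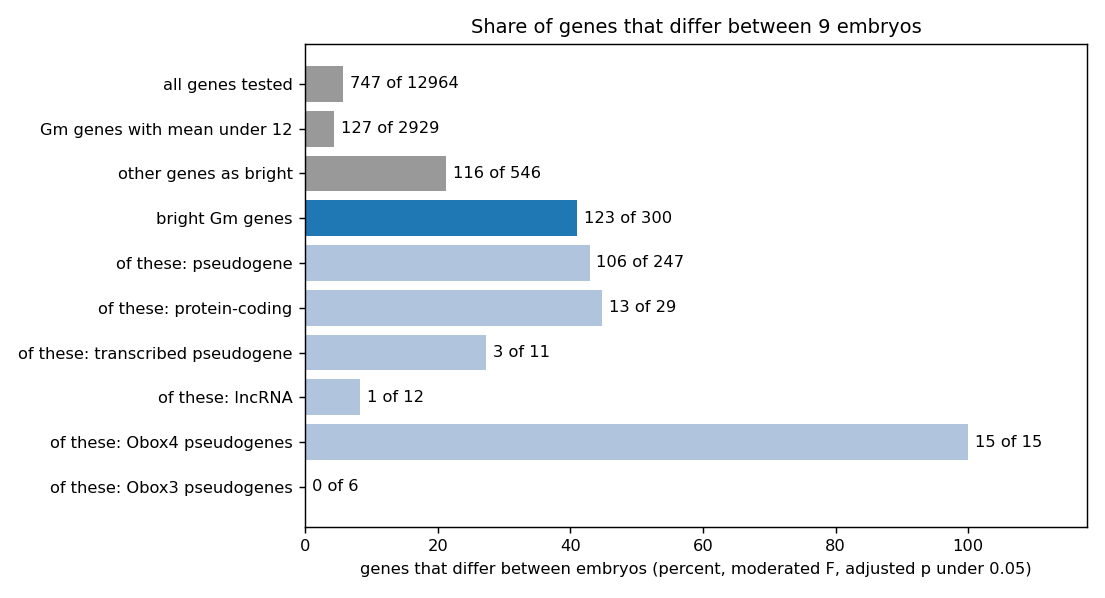
Percent of genes (x axis) in each set (y axis) that differed between the 9 embryos by the moderated F test, with the count beside each bar. Of the 300 bright Gm genes 123 passed, of other genes as bright 116 of 546, and of all genes tested 747 of 12964.

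The clearest differences lay in copies of Obox4. Obox genes encode homeobox proteins of the oocyte and early embryo that take part in switching on the embryonic genome, and they sit with their pseudogenes in a cluster on chromosome 7. RefSeq lists 38 pseudogenes of Obox4. Obox4 itself had no probe of its own above background, so the copies could not be set beside it. The 300 genes held 15 profiles of such copies, 1 of which (Gm3994) stood for 5 symbols with identical values. All 15 differed between embryos, and they took 9 of the 10 smallest p-values among the 300 genes. The brightest, Gm3968 (Obox4-ps11), read 16.25 and 15.59 in sisters 1a and 1b, 16.51 and 16.13 in embryo 2, 14.37 and 13.89 in embryo 3, 16.55 and 16.52 in embryo 4, 17.38 and 16.87 in embryo 5, 13.50 and 13.44 in embryo 7, 17.70 and 17.82 in embryo 8, 15.54 and 15.76 in embryo 9, and 17.48 and 17.44 in embryo 10 (log2 signals). Both sisters of embryos 3 and 7 were below every other blastomere, and both sisters of embryo 8 were above every other. From embryo 7 to embryo 8 the mean rose 19.6-fold, whereas sisters differed by a geometric mean of 1.21-fold (adjusted p = 1.13e-05, moderated F). Gm3959 (Obox4-ps8) reached the same adjusted p with a 23.3-fold span.

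Most of the dimmer copies of Obox4 spanned more. Gm10679 (Obox4-ps27), with a mean of 12.93 log2 units, read 9.84 and 9.37 in embryo 3, 10.58 and 9.35 in embryo 7, and 15.32 and 15.61 in embryo 8. The other 6 embryos lay between these levels, from 11.39 in 9b to 15.00 in 10a. Its highest embryo was 58.1-fold above its lowest (adjusted p = 1.64e-05), while its sisters differed by 1.32-fold in the geometric mean. The same adjusted p was reached by Gm3980 (Obox4-ps13), at 44.9-fold, and Gm20665 (Obox4-ps36), at 19.8-fold. Gm3977, Gm10678, Gm3987 and Gm4897, the other copies among the 10 smallest p-values, spanned 49.2-, 35.6-, 41.8- and 34.2-fold. Over the 15 copies the span ran from 19.6- to 58.1-fold with a median of 38.9-fold, and the geometric mean sister ratio from 1.21 to 1.39. The limit of 300 set the lower edge of brightness at 12.87 log2 units. Only Gm3968 averaged above this edge in both embryos 3 and 7. Gm20665 and Gm3959 were at 12.33 and 12.23 in embryo 7. All copies but Gm3968 were thus kept through their higher embryos, so their spans and p-values describe genes chosen partly by those high values.

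All 15 copies were highest in embryo 8. They were lowest in embryo 3 (11 copies) or in embryo 7 (4 copies). Their mean over the copies was 11.19 log2 units in embryo 3 and 11.23 in embryo 7, 13.23 in embryo 9, 14.15 in embryo 1, 14.19 in embryo 2, 14.84 in embryo 4, 15.35 in embryo 5, 15.77 in embryo 10 and 16.13 in embryo 8. The copies ran almost in parallel over the 18 blastomeres, with a median Pearson correlation of 0.99 between copies and a lowest one of 0.95. Since near-identical copies share sequence and arrays, these correlations do not show 15 separate responses. The profile resembled that of Zscan4c, a gene of the 2-cell stage whose probe correlated with the mean of the copies at 0.87 over 18 blastomeres. Zscan4c averaged 13.98 in embryo 7, 14.07 in embryo 3 and 16.57 in embryo 8. Of the other 2-cell markers, Zscan4f and Usp17la were also highest in embryo 8. Tdpoz2 went the other way, at 15.45 in embryo 7, 14.16 in embryo 3 and 12.89 in embryo 8. The likeness thus does not extend to all 2-cell genes. All 15 copies kept an adjusted p under 0.05 when any blastomere or any embryo was left out, and also by the plain analysis of variance.

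The Obox3 pseudogenes of the same chromosome did not show this pattern. Their 6 profiles had means from 14.40 to 16.38 log2 units, beside 12.93 to 16.04 for the Obox4 copies. Unlike most of the Obox4 copies, they were not kept through a few higher embryos. None of the 6 passed the embryo test (smallest adjusted p = 0.189). Gm8053 (Obox3-ps5), the brightest, ranged from 15.78 in 10b to 17.01 in 4b, with sisters up to 0.57 log2 units apart and embryo means spanning 0.96 (adjusted p = 0.263). The highest embryo exceeded the lowest by a median of 1.83-fold over these 6 profiles. A direct test of the Obox3 copies against the Obox4 copies was not made.

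**Figure D2:**
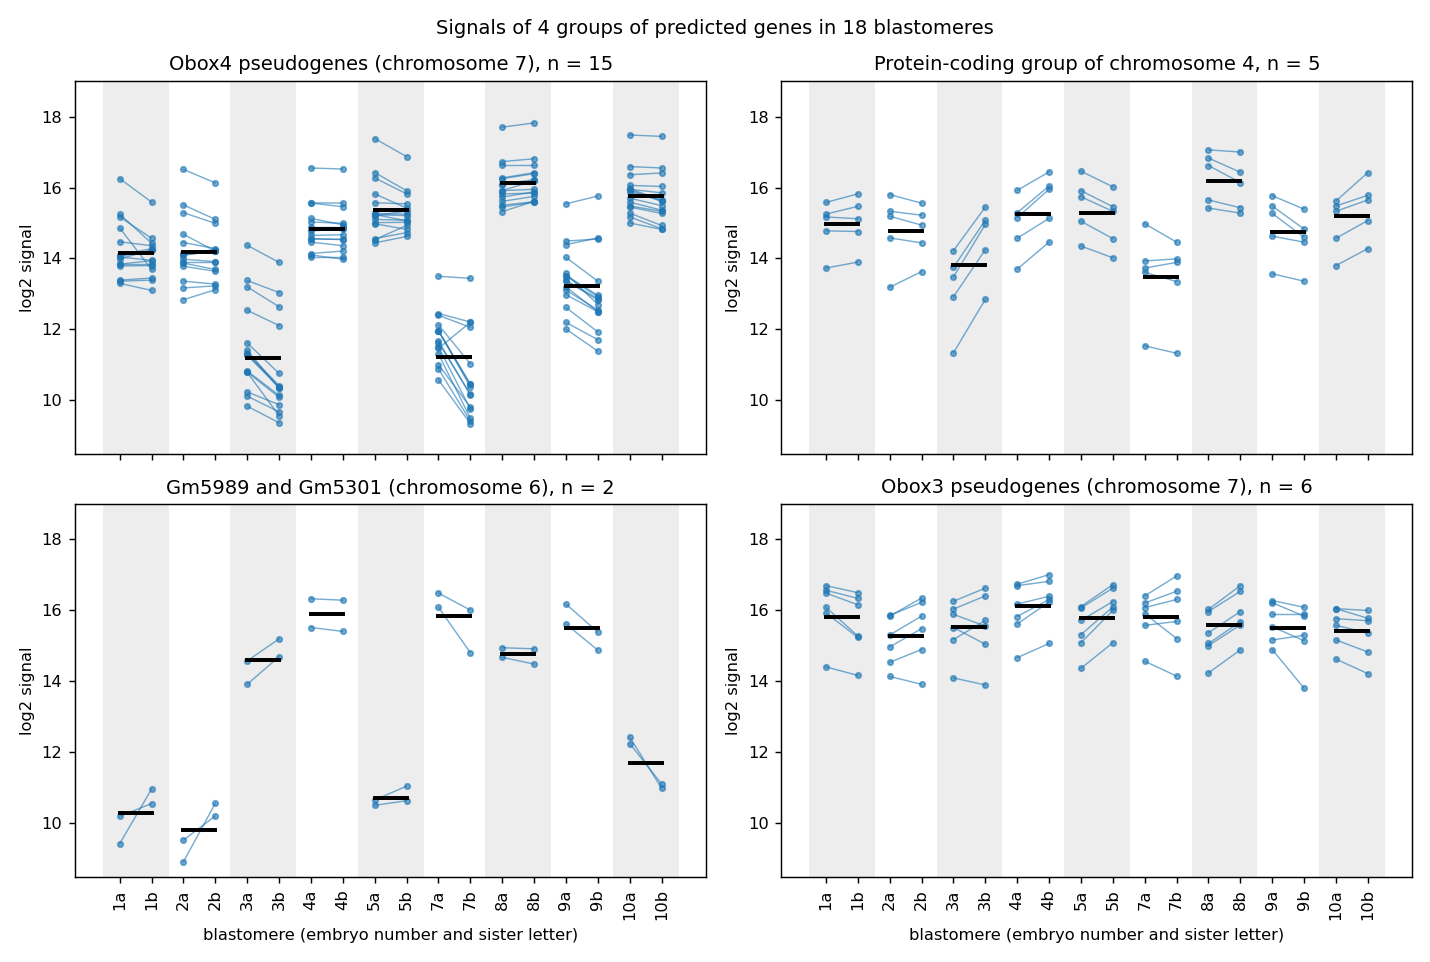
Log2 signals (y axis) of 4 groups of genes in the 18 blastomeres (x axis, sisters side by side). Each point is 1 gene in 1 blastomere, thin lines join sisters, and the black bar is the embryo's mean over the group, so that the low embryos 3 and 7 and the high embryo 8 of the Obox4 copies can be compared with the Obox3 copies.

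The 5 protein-coding neighbours on chromosome 4, 3 of whose promoters are printed above, all differed between embryos by the moderated test, and by the plain analysis of variance only Gm11487 did (adjusted p = 0.0272, against 0.0888 to 0.119 in the other 4). RefSeq places Gm11238, Gm11236 and Gm11487 on one side of Rasef, a gene for a Rab family GTPase, and Gm11756 and Gm11757 on the other side. Gm11487, the dimmest of them with a mean of 13.54 log2 units, read 11.34 and 12.85 in the sisters of embryo 3, 11.54 and 11.33 in embryo 7, and 15.42 and 15.28 in embryo 8, and the other 12 blastomeres lay from 13.19 to 14.46. Its span was 15.1-fold and its adjusted p 0.0042. In embryos 3 and 7 it averaged 12.1 and 11.4, below the lower edge of the 300 genes at 12.87. It was kept through its higher embryos, so its span and p-value describe a gene chosen partly by those high values. The other 4 spanned 4.17-fold (Gm11236, adjusted p = 0.0447) to 6.36-fold (Gm11756, adjusted p = 0.0258). All 5 were highest in embryo 8 and lowest in embryo 7, and the median correlation between them was 0.97 over the 18 blastomeres. Their mean correlated with Zscan4c at 0.86. In all 5 genes 3b was above 3a, by 1.23 to 1.51 log2 units, whereas in the Obox4 copies of the same embryo 3a was the higher sister.

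Gm5989 and Gm5301, pseudogenes a few genes apart between Aass and Fezf1 on chromosome 6, divided the embryos in another way. Gm5989 read 9.43 and 10.97 in embryo 1, 9.53 and 10.21 in embryo 2, 10.66 and 11.05 in embryo 5, and 12.43 and 10.99 in embryo 10. In the other 5 embryos it read from 14.58 in 3a to 16.49 in 7a. No blastomere lay between 12.43 and 14.58 log2 units. The highest embryo, embryo 4, exceeded the lowest, embryo 2, by 86.8-fold, the widest span among the 300 genes (adjusted p = 3.92e-05). Gm5301 put the same 4 embryos low, at 8.92 to 12.25, and the same 5 high, at 13.92 to 16.09, with a span of 52.7-fold (adjusted p = 1.35e-04). Both genes averaged below 12 log2 units in embryos 1, 2, 5 and 10, and passed the brightness threshold through the other 5 embryos. Their spans and p-values thus describe genes chosen partly by those high values. The correlation between both genes was 0.99 over the 18 blastomeres. Embryos 3 and 7, low for the Obox4 copies, were high for this pair, and the correlation of the pair with Zscan4c was -0.13.

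On chromosome 11, 8 pseudogenes between Alkbh5 and Llgl1 formed a bright group, and 5 of them differed between embryos. Gm12619, the brightest, averaged 17.33 ± 0.75 log2 units (SD, n = 18). Its sisters were at 18.34 and 18.41 in embryo 4, 18.22 and 18.12 in embryo 7, 18.03 and 17.93 in embryo 1, and 17.45 and 17.80 in embryo 3, and embryo 10 was lowest with 16.50 and 15.88. The span was 4.55-fold (adjusted p = 0.00166). Gm12621, Gm12614, Gm12625 and Gm12628 passed the test too, with spans of 4.20- to 5.24-fold, and Gm12626, Gm12620 and Gm12612 did not (adjusted p from 0.0572 to 0.0922) with spans of 4.99- to 5.52-fold. The signal of Gm12619 was most like that of Rps3a1, a ribosomal protein gene, among all genes with a name (r = 0.94 over 18 blastomeres).

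Other called genes fell into recurring pairs of highest and lowest embryo, which were described after the values had been seen. Over all 123 called genes, embryo 8 was highest for 40, which include the 15 Obox4 copies. Embryo 5 was highest for 29, embryo 7 for 21 and embryo 4 for 20. Of all 300 genes, embryos 5 and 7 were highest for 65 each and embryo 8 for 62. Among the called genes embryo 9 was lowest for 41 and embryo 10 for 32. The most frequent pair was highest in embryo 5 and lowest in embryo 9, with 24 pseudogenes on 14 chromosomes, a median span of 3.60-fold and a median correlation of 0.82 with each other. An example is Gm10481, which read 13.38 and 13.09 log2 units in the sisters of embryo 9 and from 14.10 in 10a to 15.11 in 5a elsewhere (adjusted p = 0.00272). A further 18 genes were highest in embryo 7 and lowest in embryo 10, with a median span of 5.82-fold, and 9 of these were most like a named pseudogene of a ribosomal protein, such as Rpl30-ps10 for Gm12191 (r = 0.99). The mean over all 300 genes was itself lowest in embryo 9 (14.13 log2 units) and embryo 10 (14.20) and highest in embryo 4 (14.77). The median of all genes tested was also lowest in embryo 10 (7.67). It was 7.72 in embryo 9 and 7.76 in embryo 4, and highest in embryo 5 (7.86). Whether the level of the arrays contributes to these pairs was not tested. After centring each array on its median, 126 of the 300 genes and 5.81% of all genes were called, and 115 of the 126 were among the 123.

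Of the 10 brightest genes, 4 did not pass the embryo test and 6 did, beside 5.76% of all genes tested and 21.2% of other genes as bright. The brightest, Gm13363, a transcribed pseudogene, averaged 18.93 ± 0.13 log2 units (SD, n = 18) and lay between 18.61 in 10a and 19.10 in 7b. Gm10925 (18.53 ± 0.17), the long non-coding RNA Gm7056 (17.85 ± 0.10) and Gm10222 (17.71 ± 0.18) were the others that did not pass (adjusted p from 0.117 to 0.926 over the 4). Those that passed were the neighbours Gm2016, Gm2075 and Gm6803 of chromosome 12, Gm12619, and Gm4557 and Gm5890 of chromosome 7. Gm2016 was at 18.50 and 18.54 in embryo 8 and at 18.30 and 18.32 in embryo 4, above all other blastomeres, and its lowest reading was 17.23 in 9b (2.21-fold span, adjusted p = 0.0122). Gm2075 and Gm6803 were likewise highest in embryo 8, with spans of 1.99- and 2.26-fold. None of these 3 passed the plain analysis of variance (adjusted p = 0.0525 for Gm2016, 0.112 for Gm2075 and 0.0556 for Gm6803). Gm4557 and Gm5890 were highest in embryo 4 and lowest in embryo 2, with spans of 3.43-fold (adjusted p = 0.0044) and 4.11-fold (adjusted p = 0.0071). The deposited values reach 19.41, and saturation of bright probes was not tested.

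Of the 10 brightest protein-coding genes, 6 differed between embryos, beside 5.76% of all genes tested and 21.2% of other genes as bright. Besides Gm2016 and Gm6803, these were Gm10264 (3.39-fold, adjusted p = 0.0430) of chromosome 12 and Gm11238 and Gm11756 of the group on chromosome 4, and Gm6600 of chromosome 6 (1.98-fold, adjusted p = 0.0211). Gm6600 was highest in embryo 10 and lowest in embryo 7. Each of these 6 calls was lost under at least 1 alternative: by the plain analysis of variance only Gm6600 passed (adjusted p = 0.0363), and it did not pass the moderated test without embryo 10. Gm14870, Gm2042, Gm11545 and Gm15501 did not pass (adjusted p from 0.0916 to 0.674). Gm15501 had the widest span of these 4, 4.66-fold, and a sister ratio of 1.54. Roles are not given for these genes because the annotation used holds none.

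Sister blastomeres were alike for most of the 300 genes. The geometric mean ratio of the higher over the lower sister had a median of 1.31 over the genes, from 1.05 to 3.04, against 1.45 over all genes tested and 1.29 over the other genes as bright. Sisters were over 2-fold apart in 229 of 2700 comparisons of a gene in a pair, or 8.48%, and 173 genes had no such pair. By the geometric mean, 3 of the 300 genes exceeded 2-fold, against 13% of all genes tested and 8 of the 546 other genes as bright. The smallest ratio belonged to Gm2042, at 1.05. It ranged from 15.64 to 16.09 log2 units over all blastomeres and no pair was more than 0.12 apart. Gm7056, Gm15361, Gm13363 and Gm4596 followed with ratios of 1.06 to 1.07.

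The genes above a ratio of 2 were Gm13835, Gm6158 and Gm4982. Gm13835 was at 10.63 and 14.09 log2 units in sisters 2a and 2b, 12.60 and 14.75 in embryo 5, 12.37 and 10.39 in embryo 8, and 12.98 and 9.92 in embryo 10, but at 12.25 and 12.24 in embryo 1. Letter b was the higher sister in some of these pairs and the lower one in others. Its 3.04-fold ratio was the largest, 7 of its 9 pairs were over 2-fold apart, and Psma3, a proteasome subunit gene, followed the same course with r = 0.98 over 18 blastomeres and a ratio of 2.42. Gm6158 had 4 pairs over 2-fold apart, among them 1a at 10.75 against 1b at 13.30 and 9b at 12.30 against 9a at 14.54. Gm4982 (ratio 2.08) had 5 pairs over 2-fold apart and was close to Tdpoz3, a gene of a family active in early embryos (r = 0.99, ratio 2.08). Gm12183 and Gm10179 came next with ratios of 1.97 and 1.93.

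**Figure D3:**
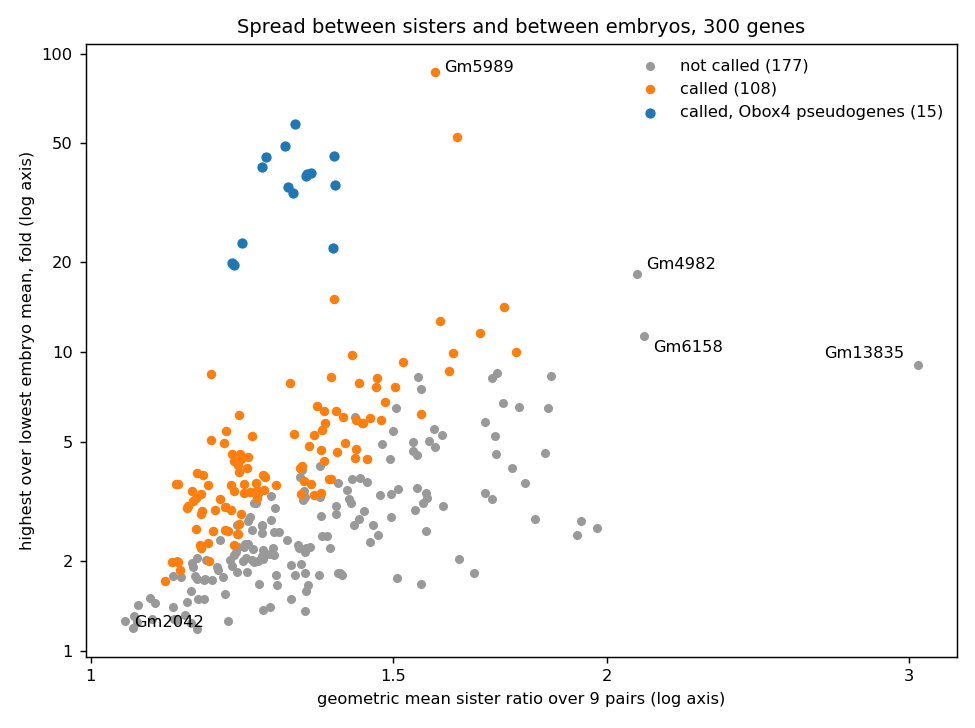
Each point is 1 of the 300 genes, with the geometric mean sister ratio over 9 pairs on the x axis and the highest over the lowest embryo mean on the y axis, both as folds on log axes. The 15 Obox4 copies lie at 19.6- to 58.1-fold between embryos with sister ratios of 1.21 to 1.39, and Gm13835 lies apart with a sister ratio of 3.04.

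No gene passed a test of excess variance between sisters, which set each gene's sister variance against limma's estimate for genes of its brightness: 0 of the 300 genes and 0.00% of all genes tested, with 2 of the 300 at an unadjusted p under 0.05 (Gm13835 and Gm6158). Their adjusted p was 0.918. The estimate carried only 3.29 degrees of freedom, so this test has little reach. Sister a against sister b (limma, blocked by embryo) gave 0 of the 300 genes and 0.00% of all genes too. At an unadjusted p under 0.05, 18 of the 300 (6.00%) and 4.57% of all genes differed between the letters. The letters carry no stated meaning.

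For pseudogenes with a named parent, the array allowed a look at both. RefSeq names 34 of the 300 genes after a parent, and for 15 of them, counting Obox3 for each of its 6 copies, the parent had a probe of its own above background. Gm12396 (Psenen-ps) and Psenen, a subunit of gamma-secretase, ran in parallel with r = 0.99 over 18 blastomeres. Gm12396 was at 17.17 and 17.51 in embryo 5 and at 15.33 and 14.72 in embryo 9, and Psenen was at 16.93 and 17.29 and at 15.21 and 14.69 in the same blastomeres. Both differed between embryos (4.98-fold, adjusted p = 1.50e-04, and 4.47-fold, adjusted p = 2.21e-04). Gm5514 (Ldhb-ps) and Ldhb, lactate dehydrogenase B, correlated at 0.90, and both passed the test (5.46-fold, adjusted p = 0.00312, and 6.39-fold, adjusted p = 0.0107). Gm6269 (Dppa3-ps) and Dppa3, a maternal protein that guards DNA methylation in the zygote, correlated at 0.89, and Gm10704 (Rtraf-ps) and Rtraf, an RNA-binding factor, at 0.90. Of these, Gm6269 passed (3.45-fold, adjusted p = 0.0374), and Dppa3 (2.11-fold, adjusted p = 0.109), Gm10704 and Rtraf did not. The call of Gm6269 was lost by the plain analysis of variance (adjusted p = 0.098) and under most other alternatives. The Obox3 copies correlated with Obox3 at 0.49 to 0.68. Gm6768 (Ncoa4-ps) differed 5.08-fold between embryos (adjusted p = 3.48e-04) and correlated with Ncoa4, a receptor for the turnover of ferritin, at 0.57, while Ncoa4 did not pass (2.58-fold, adjusted p = 0.364). These correlations carry no test and the probes of a pair may read the same RNA.

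**Figure D4:**
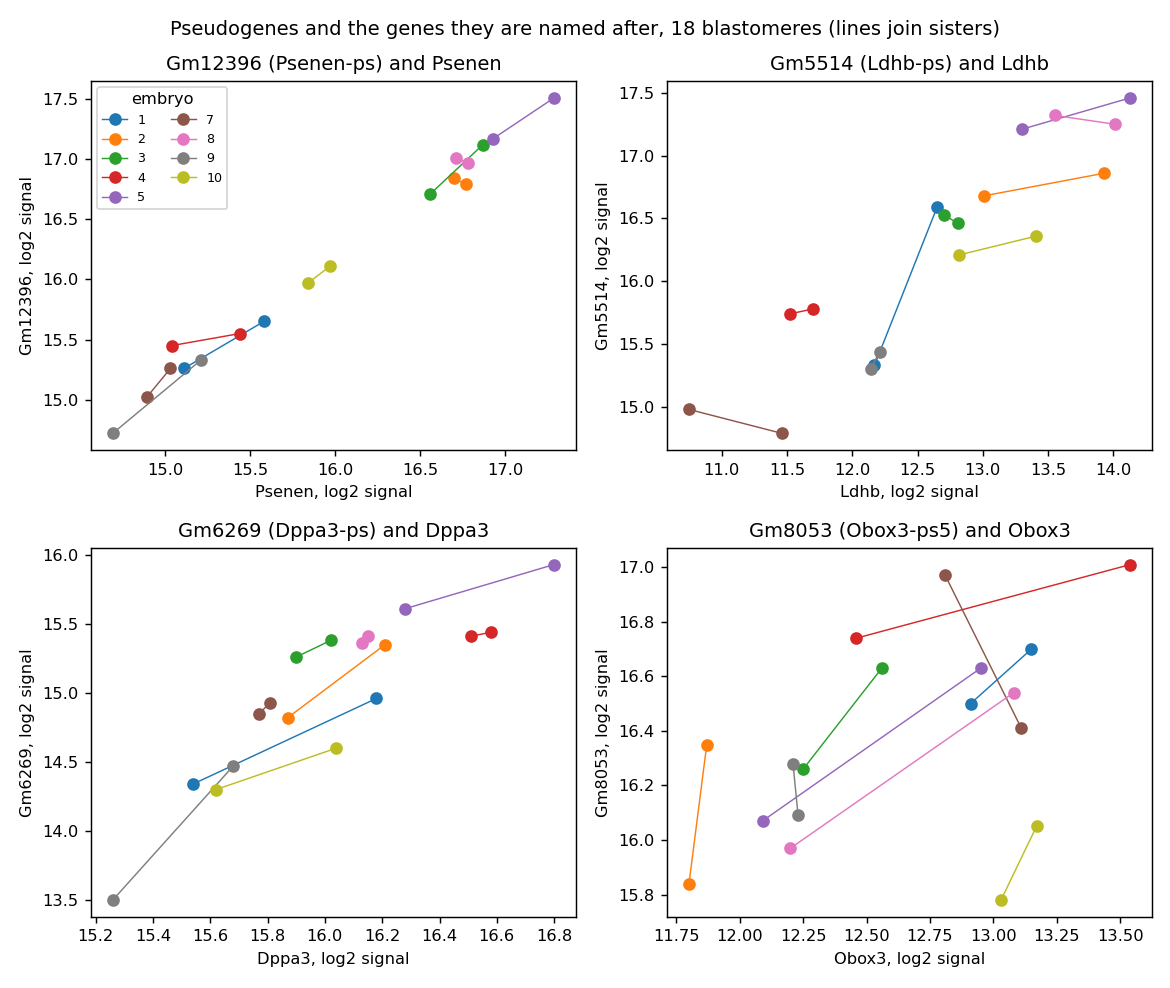
Log2 signals of 4 pseudogenes (y axes) and of the genes they are named after (x axes), with a point for each of the 18 blastomeres, a colour for each embryo and a line between sisters. Gm12396 follows Psenen closely (r = 0.99) whereas Gm8053 follows Obox3 loosely (r = 0.49).

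Each of the 300 genes was also set against all genes with a name that were above background, to find the one with the most similar signal over the 18 blastomeres. The best correlation exceeded 0.9 for 113 genes (37.7%), 0.95 for 40 (13.3%) and 0.99 for 9 (3.00%). For 537 other bright genes treated in the same way the shares were 25.3%, 11.4% and 3.91%. The best of so many candidates is high by selection, so these values describe likeness only. The 9 closest pairs included Gm10257 and Gm8757 with the named histone copies H3f3a-ps1 and H3f3a-ps2, Gm13408 with Rps3a2, Gm5518 with Hmgb1-ps3 and Gm13690 with Smt3h2-ps4, in all of which the partner is a copy or member of a gene family.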

How the data were processed

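Log2 signals of 18 blastomeres were read from the deposited table. RNA of each blastomere was amplified and labelled (WT Pico kit, per the labels), and the authors processed the Affymetrix arrays in Expression Console. The 65956 values per array were already normalized between arrays, so differences in total RNA are not visible. For the probe sets, the build was "not given in the sources used here". Probes with 1 symbol (30638) were named through the platform annotation, leaving out 2176 with several symbols and 33142 not listed, and the probe with the highest mean stood for each of 354 genes with several. RefSeq names and windows came from GRCm38.p6.

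Embryo, sister variance and letter tests were fitted with limma 3.58.1 (R 4.3.3) with an intensity trend on all 12964 genes above background. Their p-values were adjusted over all of these genes. Sister ratios were formed as the higher over the lower sister on the linear scale. Python 3.11.15, pandas 2.3.3 and matplotlib 3.10.9 were used for descriptions and figures. Array number limits the precision, with 2 sisters per embryo.

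Named were the 10 brightest genes, the 10 with the smallest embryo p, the 5 highest and 5 lowest sister ratios, the genes next to the limit, the 10 brightest protein-coding genes and pseudogenes of named parents. Protein identity between members was not analysed here. Other genes, the groups by position and the pairs of highest and lowest embryo were chosen after their values were seen. The choice of genes and lists was made with earlier results of these data known. Same-numbered samples are sisters of 1 embryo, so the number pairs them. The alternatives tried were no filter on dim genes, median centring, quantile normalization, probe means, a prior without a trend, a plain analysis of variance, the letter as a block, other thresholds for brightness and leaving out blastomeres or embryos.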

Additional observations from a re-analysis of the deposited data

Results flagged for a closer look

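Among the named genes, the embryo means of Gm14870, a protein-coding gene of the X chromosome, held a value that stood apart from the others. Embryo 10 was at 16.70 log2 units (16.60 and 16.79 in its sisters), and the other 8 embryos were between 16.30 and 16.49. The gap to the next embryo was 0.53 of the whole range. The gene did not pass the embryo test (adjusted p = 0.674), the span was 1.31-fold, and chance marks about 1 in 20 groups in this way.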

How the results depend on the processing

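The number of bright Gm genes that differed between embryos was 123, or 41.0%, beside 5.76% of all genes. It moved by more than 1.5 times with a prior without a trend (81) and with the plain analysis of variance (66). It also did so when embryo 9 or blastomere 9b was left out. Without the trend 27% of the 300 genes and 5.01% of all genes passed. By the plain analysis of variance 22% and 2.72% passed. Over all blastomeres and all embryos left out in turn the count ran from 75 to 142, when 3.84% and 6.88% of all genes passed. The cause of these shifts was not tested. The count was 82 with no filter on dim genes (2.8% of all genes), 126 with median centring (5.81%) and 110 with quantile normalization (4.93%). Without blastomeres 1a and 5b, an alternative chosen after seeing the data, it was 96 (4.36%). With the sister letter as a replicate block it was 99 (4.41% of all genes), and 98 of the 99 were among the 123. Without the limit of 300, also chosen after seeing the data, 147 of 432 profiles differed. The counts of 0 for excess sister variance and for sister letters were 0 under each alternative run, the letter test with no replicate block included. The test of excess variance has little reach, so its repeated 0 adds no support. The median sister ratio stayed between 1.28 and 1.34. All 15 Obox4 copies passed in each setting. Of 23 named genes called, 15 were called under each alternative. Limits are the 2 sisters per embryo, the absence of batch labels, and probes that cannot separate near-identical copies.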

Other observations

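Gm20775 was the only one of the 300 genes that RefSeq places on the Y chromosome, although parthenogenetic embryos carry no Y chromosome. Its signal was 13.02 ± 0.79 log2 units (SD, n = 18), from 11.92 in 9b to 14.46 in 2b. It differed between embryos (4.39-fold, adjusted p = 0.0414 by the moderated test, and 0.101 by the plain analysis of variance). In embryos 7 and 9 it averaged 11.98 and 12.20, below the lower edge of the 300 genes at 12.87. Gm20775 was kept through its higher embryos, so its span and p-value describe a gene chosen partly by those high values. The Y-linked genes Eif2s3y, Kdm5d and Uty were below background at 4.79, 5.04 and 5.37 log2 units. Sry was at 7.82, above background, and did not differ between embryos (adjusted p = 0.983). Whether the probe of Gm20775 reads a copy elsewhere in the genome was not tested.

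Gm21571 had the same values on all 18 arrays as Rps12-ps13, a pseudogene of a ribosomal protein, so the 300 genes contain at least 1 profile that also carries a name.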
